A study of Mus musculus with 39 samples.

Results

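The genes described here are 7 transcription factors of myeloid differentiation, Cebpa, Cebpb, Cebpd, Cebpe, Spi1, Gfi1 and Irf8, out of 22180 mouse genes measured. Each gene was taken from the probe set to which the platform annotation gives that symbol alone, and from the brightest such probe set where there were several. All 7 had a probe set, and Irf8 had a further, dimmer one. RNA was hybridised to Affymetrix Mouse Gene 2.0 ST arrays, 1 array for each of 39 mice, and values are log2 expression, on which 1 unit stands for a doubling. The cells were donor-derived CD45.1+ cells, sorted from the marrow of transplant recipients at end stage. The AE9a+miR-126 arm held leukaemias driven by AE9a with miR-126 added. The miR-126KO+AE9a arm held leukaemias driven by AE9a in donor cells with miR-126 knocked out, and is called the knockout arm below. The AE9a arm carried AE9a with miR-126 left alone. Each of these 3 arms had 12 mice, 3 at each of passages 1, 2, 3 and 4 of transplantation, and 3 normal controls came from passage 1 of transplantation. AE9a is a shortened form of the AML1-ETO protein that the t(8;21) translocation of acute myeloid leukaemia creates, and all 36 leukaemias carried it. The labels give no vector, promoter, strain, age or donor of a mouse, nor what the normal controls received, so p-values reflect only how much these recipient mice varied.

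Spi1 (PU.1) and Cebpa set up the myeloid programme in haematopoietic progenitors. Cebpe and Gfi1 act later and are needed for neutrophils to mature, Irf8 steers progenitors towards monocytes and dendritic cells, and Cebpb and Cebpd are inducible C/EBP family members that act in emergency granulopoiesis and in macrophages. AML1-ETO proteins are known to bind many of the regulatory regions that these factors use.

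The mature strand of the microRNA by which the arms differ is printed from RefSeq (GRCm38.p6), with its seed, bases 2 to 8, in capitals. RefSeq promoters of the same build, 250 bases before to 50 after the start, matched 4 of the 7 genes (Cebpa, Cebpb, Gfi1 and Irf8). Those of Cebpb, Gfi1 and Irf8, each of which passed the test in at least 1 comparison, are printed 5′ to 3′ on the gene's strand, so that the letters behind the search for motifs can be seen.
mmu-miR-126a-3p (chr2:26591402-26591423, plus strand): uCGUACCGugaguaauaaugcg
Cebpb promoter (chr2:167688665-167688964, plus strand): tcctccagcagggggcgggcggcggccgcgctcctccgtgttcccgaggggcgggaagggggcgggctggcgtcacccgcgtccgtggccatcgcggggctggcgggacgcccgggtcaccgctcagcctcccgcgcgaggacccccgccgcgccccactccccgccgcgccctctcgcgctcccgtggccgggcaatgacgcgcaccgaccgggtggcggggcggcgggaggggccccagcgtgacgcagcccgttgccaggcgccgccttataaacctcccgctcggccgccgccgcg
Gfi1 promoter (chr5:107725756-107726055, minus strand): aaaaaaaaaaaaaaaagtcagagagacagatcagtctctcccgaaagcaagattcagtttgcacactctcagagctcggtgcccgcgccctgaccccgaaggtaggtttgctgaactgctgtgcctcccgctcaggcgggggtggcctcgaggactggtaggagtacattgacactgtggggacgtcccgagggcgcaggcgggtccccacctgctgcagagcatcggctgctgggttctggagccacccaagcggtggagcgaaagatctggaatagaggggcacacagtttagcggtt
Irf8 promoter (chr8:120736108-120736407, plus strand): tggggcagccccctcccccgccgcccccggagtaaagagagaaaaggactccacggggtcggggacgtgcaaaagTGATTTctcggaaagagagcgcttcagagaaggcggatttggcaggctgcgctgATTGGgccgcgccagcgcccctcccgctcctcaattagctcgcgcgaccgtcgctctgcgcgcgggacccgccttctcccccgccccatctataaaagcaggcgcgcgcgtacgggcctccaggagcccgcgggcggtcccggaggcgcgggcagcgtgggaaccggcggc
The search covered 10 motifs on both strands of these promoters and of that of Cebpa, and capitals mark the matches. The motifs were the C/EBP palindrome TTGCGCAA and its spaced form TTGCNNCAA, the CCAAT box, the PU.1 site GAGGAAGT, which contains the ets core GGAAGT, the runt site TGTGGT, the Gfi1 sites AATCACNGC and AAATCA, the composite site GGAANNGAA and the interferon response site GAAANNGAA. The Irf8 promoter held a CCAAT box at base -121 and AAATCA at base -175 from the start, both on the minus strand. CCAAT is found in 37.4% of 32851 RefSeq promoters of this length and AAATCA in 14.0%. The promoters of Cebpa, Cebpb and Gfi1 held 0 matches in this window.

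A probe set shared by Mir126a and Egfl7 averaged 7.97 ± 1.48 in the AE9a+miR-126 arm (SD, n = 12), against 2.94 ± 0.10 in the knockout arm, 2.89 ± 0.09 in the AE9a arm and 3.30 ± 0.51 in the normal controls (n = 3). It therefore shows the added miR-126 but is too low in AE9a to show the knockout. The spread of values within an array, as an SD across probe sets, ran from 1.43 to 2.03 in the AE9a+miR-126 arm, 1.78 to 2.04 in the knockout arm, 1.86 to 2.06 in AE9a and 1.87 to 2.08 in the normal controls. Of the 8 arrays under 1.8, 7 belonged to the AE9a+miR-126 arm (replicates 1 and 2 of passage 2, all of passage 3, and replicates 1 and 2 of passage 4) and 1 was replicate 3 of passage 2 in the knockout arm. Values without these arrays are given for several of the results that change, and not for every gene and comparison. Without them AE9a+miR-126 kept 0 arrays at passage 3 and 1 each at passages 2 and 4. Averages over passages that involve this arm, and list counts from them, then cover passages 1, 2 and 4 only. They therefore differ from the 4-passage averages in the passages covered as well as in the arrays. The mean of 7 neutrophil markers was 6.65 to 11.42 over arrays in the AE9a+miR-126 arm and 7.66 to 10.96 in the knockout arm. It was 10.02 to 11.55 in AE9a and 11.69 to 11.84 in the normal controls. As a mean of 7 genes it does not show whether every group held neutrophil RNA.

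Over the 13 group means, Cebpe spanned the widest range of the 7 genes, 3.85 log2 units, which put it at the 98.6th percentile of all genes. The other 6 ran from 1.56 for Cebpd to 2.27 for Cebpa, while the median gene spanned 0.91. The normal controls had the highest group mean for Cebpd, Cebpe, Gfi1 and Irf8. The knockout arm held the highest mean for Cebpa and Cebpb (both at passage 3) and for Spi1 (at passage 1). Within a gene most neighbouring group means overlapped in their arrays.

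**Figure D1:**
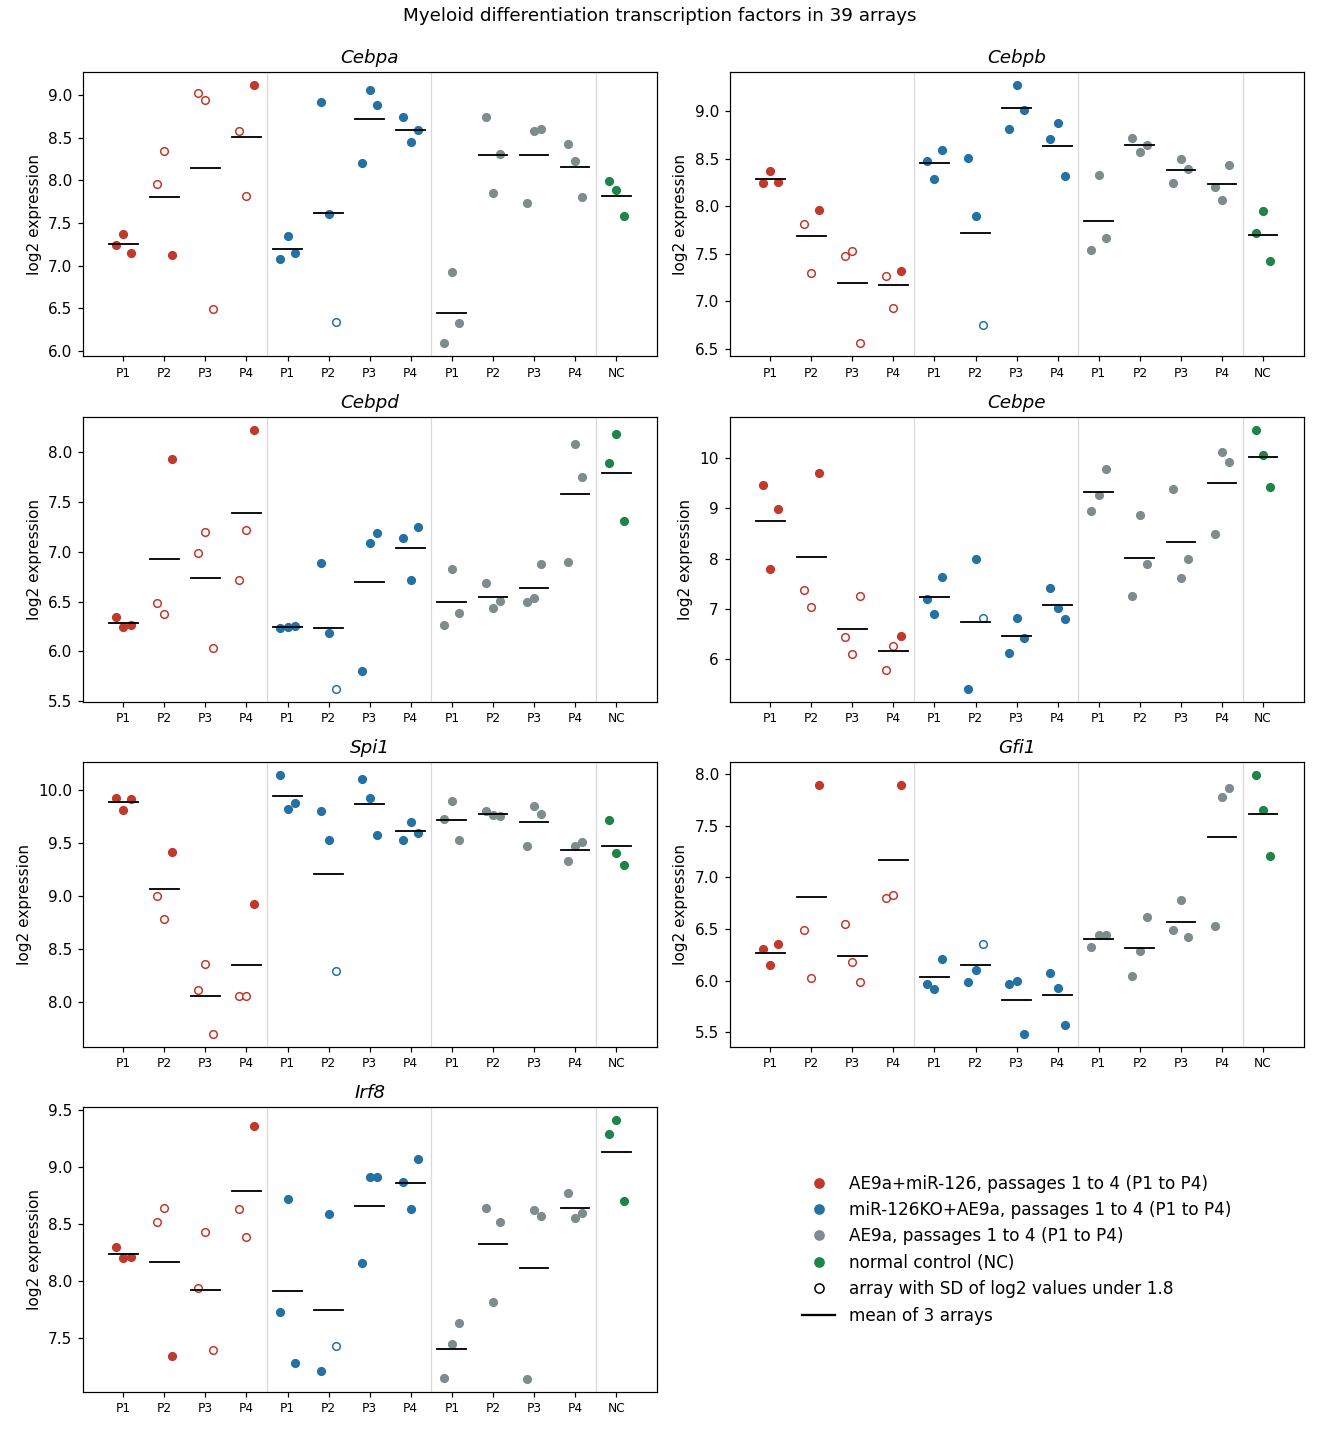
Log2 expression of the 7 transcription factors on every array (points) with the mean of each group (bars), 1 panel per gene, for AE9a+miR-126, miR-126KO+AE9a and AE9a at passages 1 to 4 and for the normal controls. Cebpe lay at 5.41 to 7.98 in the knockout arm against 9.42 to 10.56 in the normal controls, and Spi1 was lowest in AE9a+miR-126 at passages 3 and 4.

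All 39 arrays entered 1 limma fit, and a gene counts as called at a Benjamini-Hochberg adjusted p under 0.05 over the 22180 genes. Against the normal controls at passage 1, AE9a+miR-126 called 2 of the 7 genes (9.73% of all genes called), the knockout arm 4 (10.8%) and AE9a 3 (8.87%), each of them lower. At passage 2 the counts were 1 (27.7%), 4 (14.9%) and 4 (9.81%). At passage 3 they were 5 (59% of all genes), 3 (7.82%) and 1 (8.98%). At passage 4 they were 2 (31.5%), 3 (5.68%) and 0 (4.4%). The median difference of the 7 genes from the normal controls at passage 1 was -0.89 in AE9a+miR-126, -1.22 in the knockout arm and -1.21 in AE9a, beside medians of all genes between 0.01 and 0.03. Leaving out 1 array at a time moved the counts at passage 1 to 1 to 2, 2 to 4 and 1 to 3, in the same order of arms, and the arrays concerned are named with each gene.

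**Figure D2:**
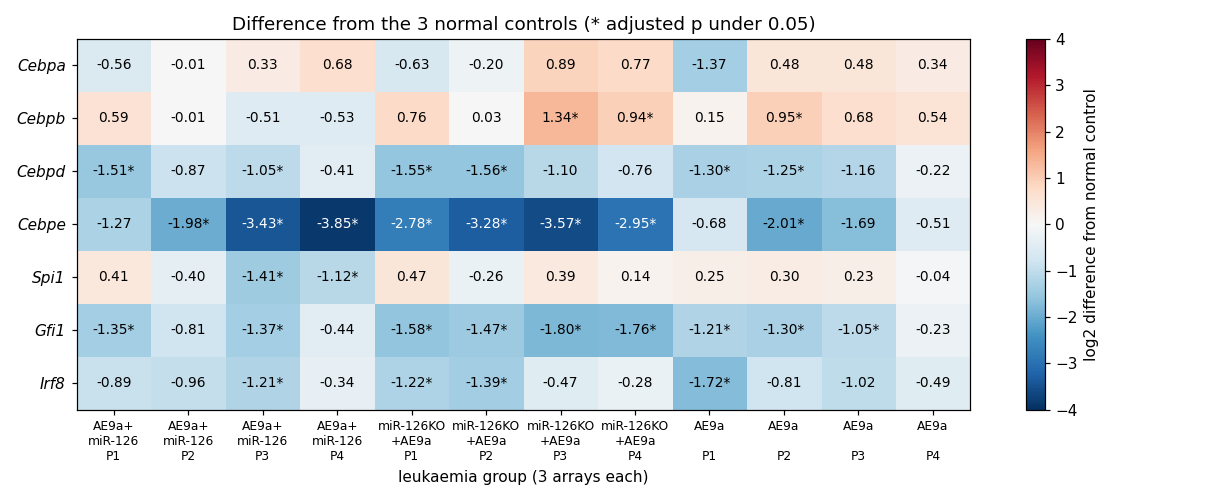
Log2 difference of each group mean (columns, 3 arrays each) from the normal controls (3 arrays) for the 7 genes (rows); red is higher and blue lower in the leukaemia, and an asterisk marks an adjusted p under 0.05. Cebpe, at -2.78 to -3.57, and Gfi1, at -1.47 or lower, carry an asterisk at every passage of the knockout arm.

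Averaged over the 4 passages with equal weight, 3 of the 7 genes were lower in AE9a+miR-126 than in AE9a (Spi1, Cebpb and Cebpe), where 55.1% of all genes were called. In the knockout arm 2 of 7 were lower than in AE9a (Cebpe and Gfi1), where 8.17% of all genes were called. These comparisons share the AE9a arrays. Set directly against the knockout arm, AE9a+miR-126 had lower Cebpb and Spi1 and higher Gfi1, 3 of 7 with 49.7% of all genes called. Cebpa, Cebpd and Irf8 were called in 0 of these 3 comparisons. Read against those shares, 3 of 7 genes is no more than the background in the comparisons of AE9a+miR-126. Some alternatives called these genes higher in AE9a+miR-126 than in AE9a. They were cyclic loess for Cebpa and Irf8, quantile normalization for Irf8, array weights for Cebpa, and array spread as a covariate for Cebpa and Cebpd. Array weights called Cebpd lower instead. Over all alternatives the differences ran from -0.10 to 0.88 for Cebpa, from -0.28 to 0.75 for Cebpd and from -0.07 to 0.63 for Irf8. Cebpd was called higher than in the knockout arm after cyclic loess, quantile normalization and with array spread as a covariate.

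**Figure D3:**
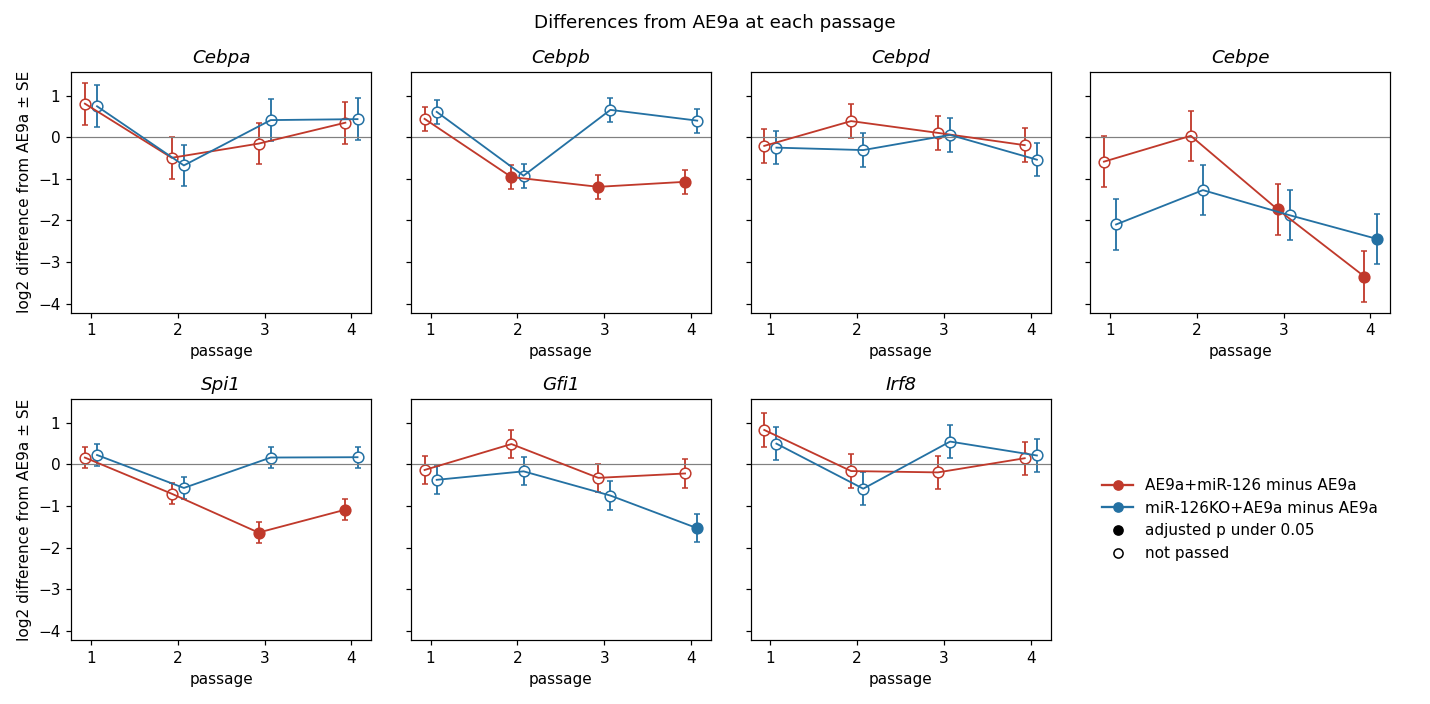
Log2 difference from AE9a at the same passage (points, 3 arrays against 3, bars are standard errors) for AE9a+miR-126 and for miR-126KO+AE9a, 1 panel per gene, with passage on the horizontal axis. Cebpe was below AE9a at 4 of 4 passages in the knockout arm, and Spi1 in AE9a+miR-126 was 0.17 above AE9a at passage 1 and 1.64 below at passage 3.

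Cebpe, the C/EBP factor of late granulocyte maturation, was the most reduced of the 7 factors in the knockout arm relative to AE9a. Knockout mice read 7.19, 6.89 and 7.64 at passage 1, 5.41, 7.98 and 6.81 at passage 2, 6.11, 6.82 and 6.42 at passage 3 and 7.42, 7.01 and 6.79 at passage 4. AE9a mice read 8.95, 9.26 and 9.79 at passage 1, 7.26, 8.87 and 7.89 at passage 2, 9.38, 7.61 and 7.99 at passage 3 and 8.48, 10.12 and 9.93 at passage 4, and the normal controls 10.56, 10.07 and 9.42. All 12 knockout arrays lay below every normal control and 9 of 12 below every AE9a array. The average over passages was lower in the knockout arm than in AE9a by a log2 difference of -1.92 ± 0.30 (SE), a 3.79-fold reduction, with 6.87 ± 0.69 against 8.79 ± 0.95 (SD, n = 12 each) and an adjusted p of 6.47e-05. This call held under each alternative fit and without each array or passage, where the difference ran from -1.70 to -2.14. At passages 1 to 4 the differences from AE9a were -2.10, -1.27, -1.87 and -2.44 (SE 0.60 each), and of these passage 4 was called (adjusted p = 0.0314, with 2 of the 7 genes called against 1.33% of all genes). That single call was lost without replicate 2 or 3 of AE9a or without any 1 of the 3 knockout mice, with differences of -2.13 to -2.62 and adjusted p from 0.0653 to 0.273, and after quantile normalization (-2.28, adjusted p = 0.0689). No gene of the 7 was called at passages 1, 2 or 3, where 2.09%, 3.99% and 1.05% of all genes were. At passage 1 a Cebpe call was gained in 9 of 33 alternatives, cyclic loess and the removal of the arrays of low spread among them. At passage 3 it was gained with array weights. Against the normal controls Cebpe fell in the knockout arm by 6.86-fold, 9.75-fold, 11.8-fold and 7.71-fold at passages 1 to 4, with adjusted p between 0.000219 and 0.00215, and these 4 calls held in each alternative run.

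With added miR-126, Cebpe was lower than in AE9a at passages 3 and 4. AE9a+miR-126 mice read 9.47, 7.80 and 8.98 at passage 1, 7.37, 7.03 and 9.71 at passage 2, 6.44, 6.09 and 7.24 at passage 3 and 5.78, 6.25 and 6.46 at passage 4. At passage 4 each of the 3 arrays lay below every AE9a and every normal control array, whereas at passage 2 replicate 3, the array of ordinary spread, stood at 9.71, well above the others. The difference from AE9a at passages 1 to 4 was -0.59, 0.03, -1.73 and -3.35 (SE 0.60 each). The last was a 10.2-fold reduction (adjusted p = 0.000206) and held in each alternative run. The call at passage 3 (adjusted p = 0.0183) was lost without AE9a replicate 1 (-1.21) or AE9a+miR-126 replicate 2 (-1.48). It was also lost after cyclic loess (-0.83, adjusted p = 0.332), after quantile normalization (adjusted p = 0.209) and with array spread as a covariate (-1.53, adjusted p = 0.310), and all 3 AE9a+miR-126 arrays of passage 3 had a low spread. The average over passages, -1.41 ± 0.30 (adjusted p = 0.000414), was -0.76 without passage 4 (adjusted p = 0.0958) and -0.64 without the arrays of low spread (adjusted p = 0.549). Against the normal controls Cebpe fell 3.94-fold at passage 2, 10.7-fold at passage 3 and 14.4-fold at passage 4 (adjusted p = 0.0168, 4.12e-05 and 2.63e-05). Removal of the arrays of low spread left 0 arrays at passage 3, where it could not be run, and 1 at passage 4. The calls at passages 3 and 4 held in each alternative that was run. That at passage 2, a difference of -1.98, was lost in 8 alternatives, among them the removal of the arrays of low spread (-0.31, adjusted p = 0.861), cyclic loess (-1.51) and the removal of AE9a+miR-126 replicate 1 or 2 or normal control replicate 1 (-1.48 to -1.71). The 2 arms in which miR-126 was changed differed in Cebpe by 0.51 ± 0.30 (AE9a+miR-126 minus knockout, 95% interval -0.11 to 1.13, adjusted p = 0.154), and this was 0.89 with an adjusted p of 0.0312 after cyclic loess.

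In AE9a itself, Cebpe differed from the normal controls by -0.68, -2.01, -1.69 and -0.51 at passages 1 to 4, and passage 2 was called (adjusted p = 0.0292). That call was lost without AE9a replicate 1 or 3 or without normal control replicate 1 or 2, with differences of -1.64 to -1.99. Across the 13 groups Cebpe followed the mean of the 7 neutrophil markers (Ly6g, S100a8, S100a9, Csf3r, Mmp8, Cxcr2 and Retnlg) with r = 0.91 over group means. In AE9a+miR-126 6 of 7 of these markers fell against AE9a, beside 24.3% of all genes, and in the knockout arm 7 of 7 did, beside 5.29% of all genes. Over the same group means Cebpe also went with the T cell markers (r = 0.80) and the B cell markers (r = 0.72). The remaining marker lists gave r of 0.46 or lower. In bulk RNA, fewer cells of a type and less RNA per cell cannot be told apart, and the part of neutrophil number in the level of Cebpe was not tested.

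**Figure D4:**
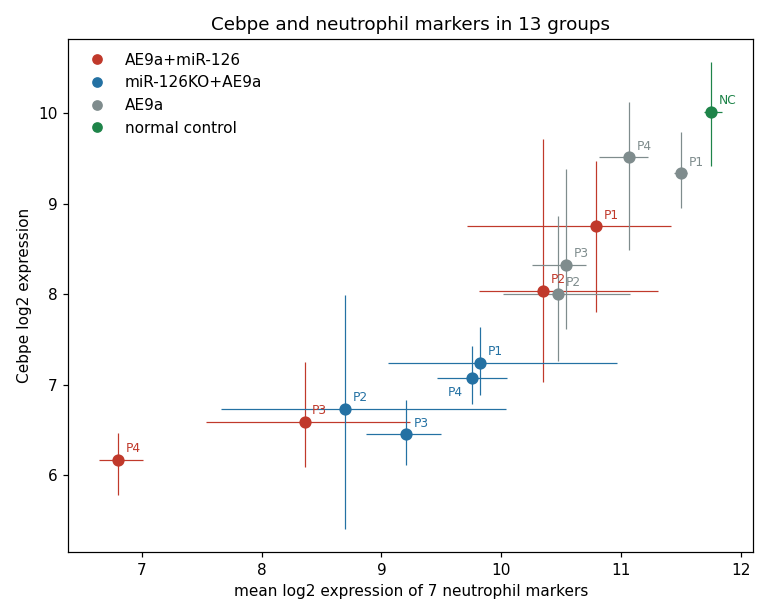
Mean log2 expression of Cebpe against the mean of 7 neutrophil markers in the 13 groups (points, labelled by passage and coloured by arm; bars run from the lowest to the highest of the 3 arrays). The normal controls sit at the upper right with Cebpe at 10.02, AE9a+miR-126 at passage 4 at the lower left with 6.17, and the 4 knockout groups between 6.45 and 7.24.

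Secondary and tertiary granule genes, many of them C/EBPε targets, were listed as context. Of 12 measured, 9 were lower in the knockout arm than in AE9a and 0 higher (median -0.80, all genes 0.01; 5.29% of all genes lower), among them Mmp9 (-2.34 ± 0.44), the gelatinase of tertiary granules, Itgb2l (-2.01 ± 0.35) and Cd177 (-1.86 ± 0.33), a neutrophil surface protein. In AE9a+miR-126 11 of 12 were lower than in AE9a (median -1.48, all genes 0.08; 24.3% of all genes lower), with Lyz2, a lysozyme, at -1.56 ± 0.15 and Ngp at -1.23 ± 0.15. Without the arrays of low spread these counts were 11 of 12 in the knockout arm and 4 of 12 in AE9a+miR-126. Of 10 primary granule genes, 5 fell in the knockout arm (5.29% of all genes) and 0 rose (2.88%), including Ctsg (-1.52 ± 0.29), which encodes cathepsin G. In AE9a+miR-126 5 of 10 fell (24.3% of all genes) and 1 rose (30.7%), with Elane, neutrophil elastase, at -1.52 ± 0.28. Csf3r, the G-CSF receptor, fell in both, by 1.06 ± 0.23 in the knockout arm and by 1.92 ± 0.23 in AE9a+miR-126 on the log2 scale.

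Gfi1, a zinc-finger repressor that favours neutrophils over monocytes, was low throughout the knockout arm. Knockout mice read 5.97, 5.92 and 6.20 at passage 1, 5.99, 6.10 and 6.36 at passage 2, 5.97, 5.99 and 5.48 at passage 3 and 6.08, 5.93 and 5.56 at passage 4. AE9a mice read 6.32, 6.44 and 6.44 at passage 1, 6.05, 6.28 and 6.61 at passage 2, 6.49, 6.78 and 6.42 at passage 3 and 6.53, 7.77 and 7.86 at passage 4, and the normal controls 7.99, 7.65 and 7.20. All 12 knockout arrays were below every normal control and 8 of 12 below every AE9a array. Gfi1 fell against the normal controls by 2.99-fold, 2.76-fold, 3.48-fold and 3.38-fold at passages 1 to 4 (adjusted p from 0.000643 to 0.00352), and these 4 calls held in each alternative run. Averaged over passages, knockout Gfi1 was below AE9a by -0.70 ± 0.17, a 1.63-fold reduction (5.96 ± 0.24 against 6.67 ± 0.57, SD, n = 12 each; adjusted p = 0.00604). Without passage 4 it was -0.43 (adjusted p = 0.164) and without passage 3 it was -0.69 (adjusted p = 0.0558). The differences at passages 1 to 4 were -0.37, -0.16, -0.75 and -1.53 (SE 0.34 each).

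At passage 4 replicates 2 and 3 of AE9a were high in Gfi1, at 7.77 and 7.86 beside 6.53 in replicate 1. The same 2 arrays had the highest T cell marker means of all arrays, 8.06 and 7.56, with 6.78 in replicate 1, 5.26 to 5.53 in the knockout arm at passage 4 and 6.38 to 7.20 in the normal controls. The passage 4 difference of -1.53 (adjusted p = 0.0125) was lost without replicate 2 or 3 of AE9a or without knockout replicate 3, at -1.29 to -1.39 with adjusted p from 0.114 to 0.160, and with the compared groups alone in the fit (adjusted p = 0.0629). Over the average of passages 6 of 7 T cell markers were lower in the knockout arm than in AE9a (5.29% of all genes), Cd3g at -1.58 ± 0.25, and their part in the level of Gfi1 was not tested. At passages 1 to 3 of AE9a, Gfi1 was below the normal controls by -1.21, -1.30 and -1.05 (adjusted p = 0.0219, 0.0105 and 0.0463). These calls were lost at passage 1 without AE9a replicate 1 or 2 or normal control replicate 1 or 2 (-1.03 to -1.23), at passage 2 without AE9a replicate 1 (-1.17) or normal control replicate 1 (-1.11), and at passage 3 without any AE9a mouse of that passage or normal control replicate 1 or 2 (-0.86 to -1.16). After quantile normalization the differences at passages 1 and 3 were -0.94 and -0.90, and both calls were lost (adjusted p = 0.0549 and 0.0638). At passage 3 the adjusted p also crossed the threshold, reaching at most 0.0531, without some arrays of other groups, replicate 2 of AE9a at passage 2 among them, with the difference still at -1.05. At passage 4 the difference was -0.23, with the groups overlapping.

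In AE9a+miR-126 Gfi1 read 6.30, 6.15 and 6.35 at passage 1, 6.49, 6.03 and 7.89 at passage 2, 6.55, 6.18 and 5.99 at passage 3 and 6.80, 6.83 and 7.89 at passage 4. The 2 readings of 7.89 belong to the arrays of ordinary spread at passages 2 and 4. Against the normal controls Gfi1 was called lower at passages 1 and 3, at -1.35 and -1.37 (adjusted p = 0.00878 and 0.00119). The first call was lost without normal control replicate 1 (adjusted p = 0.0602). The second was lost with array spread as a covariate (adjusted p = 0.389). The average differed from AE9a by -0.04 ± 0.17 (95% interval -0.39 to 0.30), and from the knockout arm by 0.66 ± 0.17, a 1.58-fold higher level with an adjusted p of 0.00253 that held in each alternative run. Without the arrays of low spread the difference from AE9a was 0.65 (adjusted p = 0.0477), the opposite direction. Of 8 genes listed as repressed by Gfi1, 1 was higher (2.88% of all genes) and 1 lower (5.29%) in the knockout arm than in AE9a. The higher was Gfi1b (1.30 ± 0.21), the erythroid paralogue, and 3 of 5 erythroid markers also rose there, with Ermap at 1.94 ± 0.28. The lower was Csf1 (-1.17 ± 0.28), the macrophage colony stimulating factor.

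Spi1, which encodes the ETS factor PU.1, was the steadiest of the 7 in AE9a, with 12 arrays between 9.33 and 9.89. AE9a+miR-126 mice read 9.93, 9.81 and 9.91 at passage 1, 9.01, 8.79 and 9.42 at passage 2, 8.12, 8.36 and 7.70 at passage 3 and 8.06, 8.06 and 8.93 at passage 4. AE9a mice read 9.73, 9.89 and 9.53 at passage 1, 9.80, 9.77 and 9.75 at passage 2, 9.47, 9.85 and 9.77 at passage 3 and 9.33, 9.47 and 9.51 at passage 4, and the normal controls 9.72, 9.40 and 9.30. At passages 3 and 4 every AE9a+miR-126 array lay below every AE9a array. The differences from the normal controls at these passages were -1.41 and -1.12 (adjusted p = 5.46e-05 and 0.00169). The first call was lost after cyclic loess and with array spread as a covariate. The second was lost without the arrays of low spread and with the compared groups alone in the fit. Of the 12 AE9a+miR-126 arrays 8 lay below all AE9a arrays, and 7 of these 8 were the arrays of low spread. The difference from AE9a was 0.17, -0.70, -1.64 and -1.09 at passages 1 to 4 (SE 0.26 each), called at passages 3 and 4 (adjusted p = 1.32e-05 and 0.00314), and after cyclic loess these were -0.49 and -0.54 (adjusted p = 0.0633 and 0.0612). With array spread as a covariate they were -0.77 and -0.54 (adjusted p = 0.0750 and 0.134). The average was -0.81 ± 0.13, a 1.76-fold reduction (8.84 ± 0.79 against 9.66 ± 0.18, SD, n = 12 each; adjusted p = 1.02e-05). It was -0.30 after cyclic loess (adjusted p = 0.0184), -0.32 after quantile normalization (adjusted p = 0.00744), -0.23 without the low-spread arrays (adjusted p = 0.286) and -0.38 with array spread as a covariate (adjusted p = 0.0551). At passage 4 the call was lost as well without those arrays (-0.51, adjusted p = 0.128), after quantile normalization (-0.49, adjusted p = 0.0640) and with the compared groups alone in the fit (adjusted p = 0.0602).

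In the knockout arm Spi1 read 10.14, 9.82 and 9.87 at passage 1, 9.80, 9.53 and 8.30 at passage 2, 10.10, 9.92 and 9.57 at passage 3 and 9.53, 9.70 and 9.60 at passage 4. The lowest of these, 8.30, is the 1 knockout array of low spread. The knockout average differed from AE9a by 0.00 ± 0.13 (95% interval -0.26 to 0.26). AE9a+miR-126 was below the knockout arm by -0.82 ± 0.13 (adjusted p = 1.11e-05), and by -0.33 without the arrays of low spread (adjusted p = 0.057). Of 13 myeloid integrin, Fc receptor and phagocyte oxidase genes linked to PU.1, 12 were lower in AE9a+miR-126 than in AE9a and 0 higher (median -0.91, all genes 0.08; 24.3% of all genes lower), including Itgam (-2.57 ± 0.23), the CD11b integrin, and Fcgr1 (-2.40 ± 0.22), a high-affinity Fc receptor. Without the arrays of low spread 6 of 13 were lower. In the knockout arm 3 of 13 were lower (5.29% of all genes) and 1 higher (2.88%), with Fcgr3 at -0.73 ± 0.13 and Ncf1 at -0.84 ± 0.18.

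Cebpb, the inducible C/EBP factor of macrophages and emergency granulopoiesis, separated AE9a+miR-126 from the other arms at late passages. AE9a+miR-126 mice read 8.24, 8.37 and 8.25 at passage 1, 7.81, 7.30 and 7.96 at passage 2, 7.48, 7.53 and 6.55 at passage 3 and 7.26, 6.92 and 7.31 at passage 4. Knockout mice read 8.48, 8.29 and 8.60 at passage 1, 8.51, 7.90 and 6.75 at passage 2, 8.81, 9.28 and 9.01 at passage 3 and 8.71, 8.88 and 8.32 at passage 4. At passages 3 and 4 the lowest knockout array was above the highest AE9a+miR-126 array, while at passage 2 the arms overlapped. AE9a mice read 7.54, 8.32 and 7.67 at passage 1, 8.72, 8.57 and 8.65 at passage 2, 8.24, 8.49 and 8.40 at passage 3 and 8.20, 8.07 and 8.44 at passage 4, and the normal controls 7.71, 7.94 and 7.42. At passages 2, 3 and 4 every AE9a+miR-126 array was below every AE9a array of the passage. Averaged over passages, AE9a+miR-126 was below the knockout arm by -0.88 ± 0.14, a 1.84-fold reduction (7.58 ± 0.56 against 8.46 ± 0.65, SD, n = 12 each; adjusted p = 1.92e-05). That call held in each alternative run, at -0.49 after cyclic loess, -0.54 after quantile normalization and -0.58 without the arrays of low spread.

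Against AE9a, Cebpb in AE9a+miR-126 differed by 0.44, -0.96, -1.19 and -1.07 at passages 1 to 4 (SE 0.29 each). The last 3 were called (adjusted p = 0.0362, 0.00129 and 0.00831), and the counts of the 7 genes called were 1, 3 and 3 at passages 2, 3 and 4, where 8.85%, 52.2% and 24.7% of all genes were. At passage 1, 0 of the 7 were called and 0.0316% of all genes, a count of 7. The average difference from AE9a was -0.69 ± 0.14 (adjusted p = 0.000274). It was -0.25 after cyclic loess, -0.28 after quantile normalization, -0.39 without the low-spread arrays and -0.33 with array spread as a covariate, with adjusted p from 0.108 to 0.231 in these 4. The call at passage 2 was lost without any 1 AE9a mouse or without AE9a+miR-126 replicate 1 or 2 (-0.76 to -1.02), and that at passage 4 without AE9a+miR-126 replicate 2 (-0.95, adjusted p = 0.0583). All 3 calls were lost after cyclic loess (-0.49, -0.23 and -0.59 at passages 2, 3 and 4), after quantile normalization (-0.47, -0.41 and -0.54) and with array spread as a covariate (-0.59, -0.46 and -0.62), with adjusted p from 0.117 to 0.521. Without the low-spread arrays the difference at passage 2 was -0.69 (adjusted p = 0.220). The knockout arm differed from AE9a by 0.19 ± 0.14 (95% interval -0.11 to 0.48). Without passage 2, at which knockout replicate 3 read 6.75, this was 0.56 (adjusted p = 0.00737). A call was also gained without the arrays of low spread.

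Cebpb was also the 1 gene of the 7 called higher than in the normal controls. Cebpb itself had 7 groups wholly above the normal controls, 3 of them called. In other genes, some groups lay wholly above the normal controls without a call. They were those of Cebpa in the knockout arm at passages 3 and 4 (0.89 and 0.77) and 3 groups of Spi1 (0.30 to 0.47). The share of all genes lying so was not counted. For Cebpa at both passages a call was gained with the compared groups alone in the fit. For Cebpb the differences in the knockout arm at passages 1 to 4 were 0.76, 0.03, 1.34 and 0.94, called at passages 3 and 4 (adjusted p = 0.00233 and 0.0465). The call at passage 3, a 2.53-fold rise, held in each alternative run, whereas that at passage 4 was lost without knockout replicate 1 or 2 or any 1 normal control (0.81 to 1.07), and with a trended and robust prior (adjusted p = 0.0563). In AE9a the differences were 0.15, 0.95, 0.68 and 0.54, with passage 2 called (adjusted p = 0.0294) and that call lost without any 1 AE9a mouse or without normal control replicate 1 or 3 (0.82 to 0.99). In AE9a+miR-126 they were 0.59, -0.01, -0.51 and -0.53, with 0 of 4 called.

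Cebpd, the other inducible C/EBP factor, lay below the normal controls at passage 1 in every arm. At passage 1 it read 6.35, 6.24 and 6.27 in AE9a+miR-126, 6.23, 6.24 and 6.25 in the knockout arm and 6.26, 6.83 and 6.39 in AE9a, against 7.89, 8.18 and 7.31 in the normal controls. The leukaemia arrays of passage 1 did not overlap with the normal controls in any arm. The differences were -1.51, -1.55 and -1.30 (SE 0.40 each), with adjusted p of 0.0135, 0.00951 and 0.0381. Without normal control replicate 2 they were -1.32, -1.36 and -1.11, and the 3 calls were lost; that of AE9a was lost as well without any 1 AE9a mouse of the passage or normal control replicate 1, and after quantile normalization (-1.04, adjusted p = 0.0819). At passage 4 Cebpd read 6.72, 7.22 and 8.22 in AE9a+miR-126, 7.14, 6.72 and 7.25 in the knockout arm and 6.89, 8.08 and 7.75 in AE9a. AE9a+miR-126 and AE9a then overlapped with the normal controls, and the differences were -0.41, -0.76 and -0.22, with 0 of 3 called. In between, Cebpd was called lower than in the normal controls in 3 groups. They were the knockout arm and AE9a at passage 2 (-1.56 and -1.25, adjusted p = 0.00834 and 0.0425) and AE9a+miR-126 at passage 3 (-1.05, adjusted p = 0.0256). Each was lost in at least 1 alternative, that of the knockout arm only without knockout replicate 3. The average over passages differed from AE9a by 0.02 ± 0.20 in AE9a+miR-126 (95% interval -0.39 to 0.43) and by -0.26 ± 0.20 in the knockout arm (95% interval -0.67 to 0.15). Over group means Cebpd went with Gfi1 (r = 0.80) and Irf8 (r = 0.77).

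Irf8, the interferon regulatory factor of the monocyte and dendritic lineages, was also below the normal controls at passage 1. It read 8.29, 8.20 and 8.21 in AE9a+miR-126, 7.73, 8.71 and 7.28 in the knockout arm and 7.14, 7.44 and 7.63 in AE9a, against 9.28, 9.41 and 8.70 in the normal controls. AE9a+miR-126 and AE9a lay wholly below the normal controls, while knockout replicate 2 reached into them. The differences were -0.89, -1.22 and -1.72 (SE 0.40 each). Those of the knockout arm (adjusted p = 0.0435) and of AE9a (a 3.30-fold fall, adjusted p = 0.00562) were called, that of the knockout arm lost without knockout replicate 1 or 3 or normal control replicate 1 or 2 (-0.91 to -1.15). At passage 4 the arms read 8.63, 8.38 and 9.36, 8.87, 8.63 and 9.07 and 8.77, 8.55 and 8.60 in the same order, which overlapped with the normal controls, and 0 of 3 were called. In between, Irf8 was called lower in the knockout arm at passage 2 (-1.39, adjusted p = 0.0175). It was also called lower in AE9a+miR-126 at passage 3 (-1.21, adjusted p = 0.0108). The first was lost without knockout replicate 1 or 3, normal control replicate 1 or 2, or the other groups in the fit. The second was lost after cyclic loess, quantile normalization, with array spread as a covariate and without AE9a+miR-126 replicate 3. The dimmer Irf8 probe set, with a mean of 4.60 against 8.30, gave -0.01 for AE9a at passage 1, so the reduction rests on the brighter one. The average over passages differed from AE9a by 0.16 ± 0.20 in AE9a+miR-126 (95% interval -0.25 to 0.56) and by 0.17 ± 0.20 in the knockout arm (95% interval -0.23 to 0.58). Of 11 monocyte and dendritic genes linked to Irf8, 4 were higher and 0 lower in the knockout arm than in AE9a (median 0.44, all genes 0.01; 2.88% of all genes higher), with Cx3cr1, the fractalkine receptor, at 1.23 ± 0.16. In AE9a+miR-126 4 were lower and 0 higher (median -0.25, all genes 0.08; 24.3% of all genes lower), with Naaa at -2.58 ± 0.19 and Ccr2 at -0.96 ± 0.18.

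Cebpa, the C/EBP factor that starts granulocyte and monocyte commitment, was called in 0 of 28 comparisons, though it spanned 2.27 log2 units. At passage 1 it read 7.24, 7.37 and 7.15 in AE9a+miR-126, 7.08, 7.35 and 7.15 in the knockout arm and 6.09, 6.92 and 6.33 in AE9a, against 7.99, 7.89 and 7.58 in the normal controls. Every leukaemia array of passage 1 was below every normal control, with differences of -0.56, -0.63 and -1.37 (SE 0.50 each; adjusted p = 0.600, 0.517 and 0.0831). At passage 4 it read 8.58, 7.81 and 9.12, 8.74, 8.45 and 8.59 and 8.43, 8.23 and 7.81 in the same order. In each arm the 3 arrays of passage 4 were above the 3 of passage 1, with differences of 1.25, 1.40 and 1.71 and adjusted p of 0.0660, 0.136 and 0.0566. After cyclic loess the 3 differences were 1.73, 1.49 and 1.59, with adjusted p of 0.00333, 0.0234 and 0.0188. The average over passages differed from AE9a by 0.13 ± 0.25 in AE9a+miR-126 (95% interval -0.38 to 0.64) and by 0.23 ± 0.25 in the knockout arm (95% interval -0.28 to 0.74).

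Between passages 4 and 1, 5 of the 7 genes were called in AE9a+miR-126 (24.3% of all genes), 0 in the knockout arm (4.04%) and 0 in AE9a (2.94%). In AE9a+miR-126 the differences were -1.53 for Spi1 (adjusted p = 5.47e-05), -2.58 for Cebpe and -1.12 for Cebpb, while Cebpd rose by 1.10 and Gfi1 by 0.90. The Spi1 call held in each alternative run. That of Cebpd was lost without any 1 of the 6 arrays other than replicate 1 of passage 4, and that of Gfi1 without any 1 of the 6, and without replicate 3 of passage 4 the differences were 0.68 and 0.54; both were lost with the compared groups alone in the fit (adjusted p = 0.129 and 0.143), and that of Gfi1 with the replicate number as a block (adjusted p = 0.0533). The Cebpb call was lost after cyclic loess (-0.62), quantile normalization (-0.61) and with array spread as a covariate (-0.69), and that of Cebpe without the arrays of low spread (-2.28, adjusted p = 0.0594). In AE9a the arrays of passage 4 were above those of passage 1 for Cebpd (1.08), Gfi1 (0.99) and Irf8 (1.23), and leaving out AE9a replicate 1 of passage 4 made that of Gfi1 1.42 with an adjusted p of 0.0207. The difference between AE9a+miR-126 and AE9a was itself more negative at passage 4 than at passage 1 for Cebpb (-1.51 ± 0.41), Cebpe (-2.76 ± 0.86) and Spi1 (-1.25 ± 0.36), with adjusted p of 0.0190, 0.0376 and 0.0280, 3 of 7 beside 10.5% of all genes. After cyclic loess, quantile normalization or with array spread as a covariate 0 of these 3 were called, and without the arrays of low spread Cebpe and Spi1 were not. Leaving out single arrays gave 0 to 3 calls, with differences of -1.36 to -1.75 for Cebpb, -2.40 to -3.27 for Cebpe and -1.11 to -1.54 for Spi1. The change of the knockout effect between the same passages was called for 0 of 7 beside 0.428% of all genes.

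**Figure D5:**
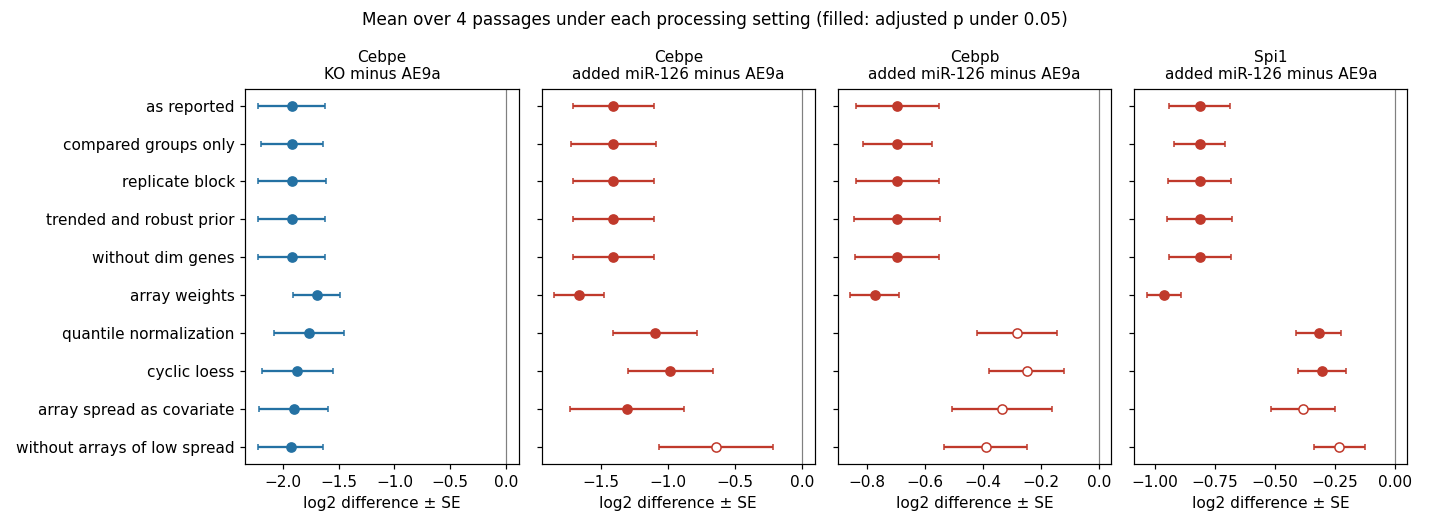
Average log2 difference over the 4 passages (points, bars are standard errors) under each processing setting (rows) for Cebpe in the knockout arm minus AE9a and for Cebpe, Cebpb and Spi1 in AE9a+miR-126 minus AE9a; filled points have an adjusted p under 0.05. Without the arrays of low spread the AE9a+miR-126 points average passages 1, 2 and 4 only, as its passage 3 kept 0 arrays. Cebpe in the knockout arm stayed between -1.70 and -1.93, while without the arrays of low spread Cebpe, Cebpb and Spi1 in AE9a+miR-126 were at -0.64, -0.39 and -0.23 with open points.

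Genes with the pattern most like each factor over the 13 group means were described by Pearson's r, across groups that share arms and array spread. Cebpe was followed most closely by Itgb2l, Rdh12 and Mgam (r = 0.98 each), Spi1 by Arhgap1, Atp6v1b2 and Sfxn3 (0.98 each), and Cebpb by Il13ra1, Wfdc18 and Il6ra (0.95 each). Gfi1 was followed by Ubash3a (0.95), Lgals4 (0.91) and Dctd (0.90), and Cebpd by Ctc1 (0.94), Insr (0.91) and Cdkn2aipnl (0.90). Irf8 was followed by Pctp (0.92), Hspe1 (0.90) and Haao (0.90), and Cebpa by Zdhhc1, Thbd and Dglucy (0.89 each). Among the 7 genes the highest r was 0.84, between Cebpb and Spi1, and the lowest was -0.50, between Cebpb and Gfi1.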

How the data were processed

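Analysis began from log2 values deposited by the authors, 27037 probe sets on each of 39 arrays, which RMA and Partek 6.0 produced, per the submitters' processing notes. RMA corrects the background, sets all arrays to one distribution of probe intensities and summarises each probe set. For filters, batch steps and genome build, nothing is stated: not given in the sources used here. Group and replicate number came from the array titles. The platform annotation gave 1 symbol to 23521 probe sets, several to 1814 and none to 1702. The brightest probe set was kept for each of the 1082 genes with more than 1, which left 22180 genes.

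All arrays entered 1 limma fit (limma 3.58.1, R 4.3.3) of 13 group means with 26 residual degrees of freedom and 28 comparisons. Benjamini-Hochberg adjustment ran over all genes of a comparison, and a call is an adjusted p under 0.05. Log2 differences are followed by ± the standard error. The number of arrays limits the precision: the median standard error was 0.22 for 3 arrays against 3 and 0.11 for averages over passages. The fit was tested on simulated data.

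The genes, the context lists and the tests were chosen with earlier results of these data known. Named genes are the 7 factors in every comparison, up to 3 genes with the smallest adjusted p from each context or marker list in a comparison, and the 3 genes most correlated with each factor among those whose group means span at least 1 log2 unit. Context lists hold genes that general knowledge links to the factors: granule genes, cytokine receptors, integrins, lineage partners and genes repressed by Gfi1. Marker lists cover neutrophils, macrophages, T and B cells, erythroid cells, megakaryocytes, mast cells and stroma.

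Alternatives were cyclic loess, quantile normalization, array weights, array spread as a covariate, a filter on dim genes, a trended and robust prior, the compared groups alone in the fit, a block for the replicate number, removal of arrays with SD under 1.8, the other Irf8 probe set, and leaving out each array or passage. List counts under the normalization and spread alternatives were added after seeing the data.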

Additional observations from a re-analysis of the deposited data

Results flagged for a closer look

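In 3 genes the difference between AE9a+miR-126 and AE9a was not the same at passages 4 and 1 by an interaction test in the limma fit. The change of the difference, passage 4 minus passage 1, was -1.51 on the log2 scale for Cebpb (adjusted p = 0.0190), -2.76 for Cebpe (adjusted p = 0.0376) and -1.25 for Spi1 (adjusted p = 0.0280). At passage 1, 0 of the 3 AE9a+miR-126 arrays had a low spread, and at passage 4, 2 of 3 did. With array spread as a covariate the changes were -0.95, -2.60 and -0.58, with adjusted p of 0.235, 0.162 and 0.394.

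In 4 further cases every array of 1 arm lay above a common comparison group and every array of the other arm below it, and 3 of these differences between arms were not tested as such. The share of all genes with such an opposition was not counted, so the 4 cases cannot be read as particular to these genes. At passage 3 Cebpb lay above AE9a in all 3 knockout mice and below it in all 3 AE9a+miR-126 mice, whose effects differed by -1.85 (AE9a+miR-126 minus knockout). At passage 4 the same opposition around the normal controls gave -1.47 between AE9a+miR-126 and the knockout arm, and -1.07 between AE9a+miR-126 and AE9a, which was tested in the limma fit (adjusted p = 0.00831) and lost its call after cyclic loess (-0.59, adjusted p = 0.117). Spi1 at passage 4 lay above AE9a in the knockout arm and below it in AE9a+miR-126, and these effects differed by -1.26. Most of this lay in AE9a+miR-126, at -1.09 ± 0.26, while the knockout arm was at 0.17 ± 0.26 (adjusted p = 0.991 in the limma fit). All 3 AE9a+miR-126 arrays of passage 3 and 2 of the 3 of passage 4 had a low spread.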

How the results depend on the processing

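Of the 57 calls among 196 pairs of gene and comparison, 16 were kept in every alternative run for them and 41 were lost in at least 1; of the 139 without a call, 61 gained one in at least 1. Kept in every one were Cebpe in the knockout arm against AE9a on average and against the normal controls at 4 of 4 passages, Gfi1 in the knockout arm against the normal controls at the same 4, Cebpe in AE9a+miR-126 against the normal controls at passages 3 and 4 and against AE9a at passage 4, Cebpb in the knockout arm against the normal controls at passage 3, Cebpb and Gfi1 in AE9a+miR-126 against the knockout arm on average, and Spi1 in AE9a+miR-126 at passage 4 over passage 1. The counts of the 7 genes called moved beyond 1.5 times as follows, each given against the reported count, and the cause was not tested. With array weights the count was 6 against 2 for AE9a+miR-126 at passage 1 and 7 against 2 at passage 4 relative to the normal controls, 6 against 3 for the AE9a+miR-126 average, 5 against 3 for the change of that effect, 1 against 0 for the change of the knockout effect, 2 against 0 and 4 against 0 for passage 4 over passage 1 in the knockout arm and in AE9a, 11 against 7 and 8 against 2 for single passages of AE9a+miR-126 and of the knockout arm over AE9a, and 32 against 18 for the arms over normal controls at passages 2 and 3. With array spread as a covariate, cyclic loess and quantile normalization, single passages of AE9a+miR-126 gave 2, 1 and 2 against 7, and the change of its effect 0 in each against 3. Cyclic loess gave 5 against 3 for AE9a+miR-126 over the knockout arm. Quantile normalization gave 1 against 3 for AE9a at passage 1 and 1 against 2 for single passages of the knockout arm, where the filter on dim genes gave 4. Without the arrays of low spread, which left 0 arrays of AE9a+miR-126 at passage 3 and 1 each at passages 2 and 4, assumed to vary like the others, the counts were 4 against 2 and 1 against 2 for AE9a+miR-126 over normal controls at passages 1 and 4, 1 against 3 for its average, 1 against 3 for the change of its effect and 3 against 7 for its single passages. For passage 4 over passage 1, the settings of array spread, cyclic loess, low-spread arrays and compared groups alone gave 2, 1, 1 and 2 against 0 in the knockout arm and 1, 1, 4 and 2 against 0 in AE9a, the filter on dim genes gave 1 in AE9a, and compared groups alone gave 3 against 5 in AE9a+miR-126 and 1 against 2 for its passage 4 over normal controls. The knockout average gave 1 against 2 without passage 3 or passage 4. Leaving out single arrays gave 1 to 2, 2 to 4 and 1 to 3 calls for AE9a+miR-126, the knockout arm and AE9a at passage 1 over normal controls, 3 to 4 for AE9a+miR-126 and 0 to 1 for AE9a at passage 4 over passage 1, 0 to 3 for the change of the AE9a+miR-126 effect, 6 to 8 and 0 to 5 for single passages of AE9a+miR-126 and of the knockout arm, and 10 to 22 for the arms at passages 2 and 3. Signs turned in 5 cases where the reported or the alternative fit held a call. For Cebpd they were AE9a+miR-126 at passage 3 over normal controls with array spread as a covariate (0.41) and the AE9a+miR-126 average with array weights (-0.28). Gfi1 turned in that average without the arrays of low spread (0.65). Irf8 turned over normal controls with the dimmer probe set, in the knockout arm at passage 1 (0.12) and in AE9a+miR-126 at passage 3 (0.30). Signs also turned where neither fit held a call. Cebpb in AE9a+miR-126 at passage 3 over normal controls, at -0.51, reached 0.46, and Cebpa there over AE9a, at -0.15, reached 1.36. The replicate numbers did not pair the arrays: deviations of same-numbered arrays correlated with a median r of -0.02, and 5 of 39 arrays correlated best with their own number. With the replicate number as a block the count for AE9a+miR-126 at passage 4 over passage 1 was 4 against 5, with Gfi1 at 0.90 (adjusted p = 0.0533), and it changed no other call. Secondary and tertiary granule genes lower than in AE9a numbered 8 to 11 with the knockout over the 4 settings added after seeing the data. With added miR-126 this count had a wider range, and 1 of the 4 settings left it 1 array each at passages 2 and 4. Ranges of the other lists are not given here. Low signal limits Irf8's dimmer probe set. The lowest readings of Cebpe (5.41) and Gfi1 (5.48) also lay below the median of all values, 5.52.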
